A study of Sus scrofa with 220 samples.

Results

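The epiblast and hypoblast of the pig late blastocyst were compared across all genes. The cells labelled LB EPI and LB HYPO were taken, 25 and 36 cells, together 61 of the 220 cells of the series. Counts were summed per lineage and per embryo, read from the letters of each cell's name, which gave 4 EPI sums (embryos AN, AO, AP and AQ) and 5 HYPO sums (AL, AM, AN, AO and AP), with 3 of 6 embryos in both groups. The study profiled single cells of pig embryos from the morula to the spherical embryo by Smart-seq2, to follow how pluripotent and extraembryonic lineages form. Embryos were flushed from crossbred Large White and Landrace sows after insemination, and no group carried a genetic change or a drug treatment. Trophectoderm was removed from late blastocysts by immunosurgery before the inner cells were dissociated. In spherical embryos (Sph), a later stage, EPI and HYPO were separated by hand, and 48 Sph EPI cells of 4 embryos and 12 Sph HYPO cells of 3 embryos served here for comparison.

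The methods describe no physical separation of EPI from HYPO at the late blastocyst. The methods describe clustering of the transcriptomes, read with known lineage genes, and the labels of these cells are taken here to rest on it. Values between LB EPI and LB HYPO are therefore a description of how steadily the labelled groups differed between embryos, and their p-values are no independent test. Spherical embryos share no sample with late blastocysts and gave the same measure in other embryos. Their lineages were isolated by hand, but whether the labels of their cells follow that isolation or the clustering is not stated, so their p-values may carry the same limit.

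The inner cell mass of the mammalian blastocyst divides into the epiblast, the founder of the embryo proper, and the hypoblast, which lines the blastocoel and gives rise to the yolk sac endoderm. Blocking FGF signals through the kinase MEK prevents hypoblast in mouse and rabbit. In pig, the study reports that hypoblast markers persist under such a block, and it saw fewer hypoblast cells only at a high dose. Hypoblast is recognised by GATA-family factors and HNF4A, by secretion of basement membrane proteins and later by liver-type transport proteins. Epiblast is recognised by pluripotency factors and later expresses genes also used by germ cells.

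The EPI sums held 3694298 to 18779446 counts from 2 to 10 cells, and the HYPO sums 1678233 to 29496266 counts from 1 to 16 cells. A cell had a median of 1870478 counts in EPI and 1660325 in HYPO. Levels are given as CPM of the sum (counts relative to its total) after scaling by TMM, which corrects for composition, and fold changes as log2 with EPI over HYPO. XIST is the X-linked RNA that acts in X inactivation of female cells, which the study found in spherical epiblast but not in late blastocysts. XIST was counted in 2 of 4 EPI embryos and in 3 of 5 HYPO embryos. Embryos without it gave 12 of 25 EPI cells but 4 of 36 HYPO cells. The study called sex from Y-linked genes. It listed male and female LB EPI cells in near equal number, but mostly female LB HYPO cells. Sex and lineage were thus partly confounded among the cells, and the part of sex in differences of X-linked genes was not tested. Values with an XIST term and within library pools are given beside the counts of genes. No cell of the 61 had the same counts as another.

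Among 14721 genes tested with edgeR's quasi-likelihood test, 132 were higher in EPI (0.897% of genes) and 151 higher in HYPO (1.03%) at an adjusted p under 0.05, together 283 or 1.92%. Genes past this threshold are termed called. The balance turned without TMM (168 and 151), with RLE size factors (168 and 145) and with DESeq2 (762 and 611), each with more genes higher in EPI. At an unadjusted p under 0.05 there were 2943 genes. The EPI-higher genes differed more steeply: their median size was 7.21 on the log2 scale, with quartiles of 2.68 and 9.59, and 18 of them had no count in any HYPO cell. The HYPO-higher genes had a median size of 2.5, with quartiles of 1.8 and 4.26, and 4 of them had no count in EPI. Of all genes tested, 1263 or 8.58% had embryo sums that did not overlap between the lineages, among them 123 of the 132 and 148 of the 151.

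**Figure D1:**
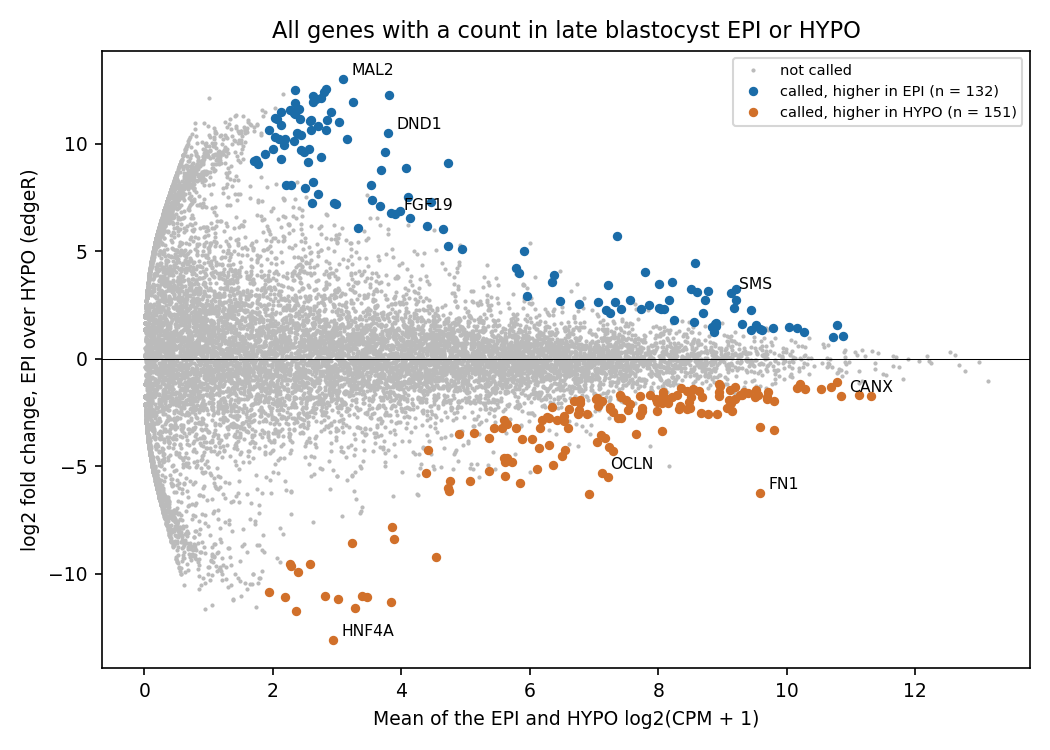
Each point is a gene with a count in late blastocyst EPI or HYPO, with the mean of the 2 lineages' log2(CPM + 1) on the x axis and edgeR's log2 fold change of EPI over HYPO on the y axis. The 132 EPI-higher genes (blue) reach from the steep, low-count edge to abundant genes, while most of the 151 HYPO-higher genes (orange) lie at smaller folds and higher levels, and genes with no count in 1 lineage are plotted at fitted values that are not bounds.

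Within the 3 embryos that gave both lineages, 126 of the EPI-higher genes were higher in EPI in all 3 and all 151 HYPO-higher genes were higher in HYPO in all 3. The genes were called on sums that include these embryos, and most did not overlap, so this direction largely followed from the choice. With the embryo as a replicate block, 20 genes passed, 10 in each direction, all among the 283. A gene described as higher in 1 lineage passed without the block, and its adjusted p with the block is given where it did not pass there. Leaving out EPI AQ, EPI AP or HYPO AM brought the count to 138, 146 and 163, and 48 EPI-higher and 62 HYPO-higher genes passed whichever sum was left out. With an XIST term 342 genes passed, 269 of them among the 283. In cells of the first 4 library pools alone 113 genes passed and in those of the last 4 pools 64, with all 283 in their main direction in both. These pools are parts of the cells on which the 283 were called, so their direction is no independent support.

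The markers proposed for these lineages separated the sums in each embryo. FN1, fibronectin of the basement membrane, stood at 68.4, 201, 92.4 and 37.3 CPM in EPI of AN, AO, AP and AQ and at 5534, 6038, 10190, 4018 and 12303 CPM in HYPO of AL, AM, AN, AO and AP. The lowest HYPO sum was far above the highest EPI sum, and the log2 fold change was -6.25 ± 0.56 (SE, as for all fold changes here, edgeR adjusted p = 0.000196). All 36 HYPO cells and 15 of 25 EPI cells had FN1 over a TPM of 1. HNF4A, a nuclear receptor of endoderm, had no count in any of the 4 EPI sums and 252, 71.3, 21.2, 34.1 and 46.8 CPM in HYPO. Taken over the groups and against a floor of 3 counts in EPI it was at least 1007-fold higher in HYPO (edgeR adjusted p = 0.00541), although only 22 of 36 HYPO cells passed a TPM of 1. EPI had 0 of 25 such cells, and counting error alone leaves room for a share as high as 12%.

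On the EPI side, MAL2, a membrane protein of apical transport, stood at 112, 28.7, 73.5 and 117 CPM in EPI and had no count in HYPO, at least 1643-fold higher in EPI over the groups (edgeR adjusted p = 0.00443). It was seen over a TPM of 1 in 11 of 25 EPI cells and in 0 of 36 HYPO cells, where a share as high as 8.33% could have been missed. DND1, an RNA-binding protein of the germline, stood at 43.2, 23.7, 487 and 893 CPM in EPI and at 1.02, 0.0834, 0, 0.156 and 0.554 CPM in HYPO. The EPI embryos fell apart into lower AN and AO and higher AP and AQ, yet none overlapped with HYPO (log2 fold change 10.49 ± 1.41, edgeR adjusted p = 0.00269). DND1 is counted on an entry that the authors added beside another entry of the same gene, so reads may be divided between them and its level is uncertain. FGF19, a secreted FGF that acts at a distance, stood at 43.2, 103, 167 and 313 CPM in EPI, with 0, 3.13, 0, 3.5 and 0 CPM in HYPO (log2 fold change 6.73 ± 1.41, edgeR adjusted p = 0.0271). The HYPO counts lay in AM and AO, and its adjusted p rose to 0.0694, 0.1101 and 0.0528 without EPI AP, EPI AQ and HYPO AM. FN1 and DND1 passed with the replicate block, while HNF4A (adjusted p = 0.137), MAL2 (0.182) and FGF19 (0.182) did not.

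**Figure D2:**
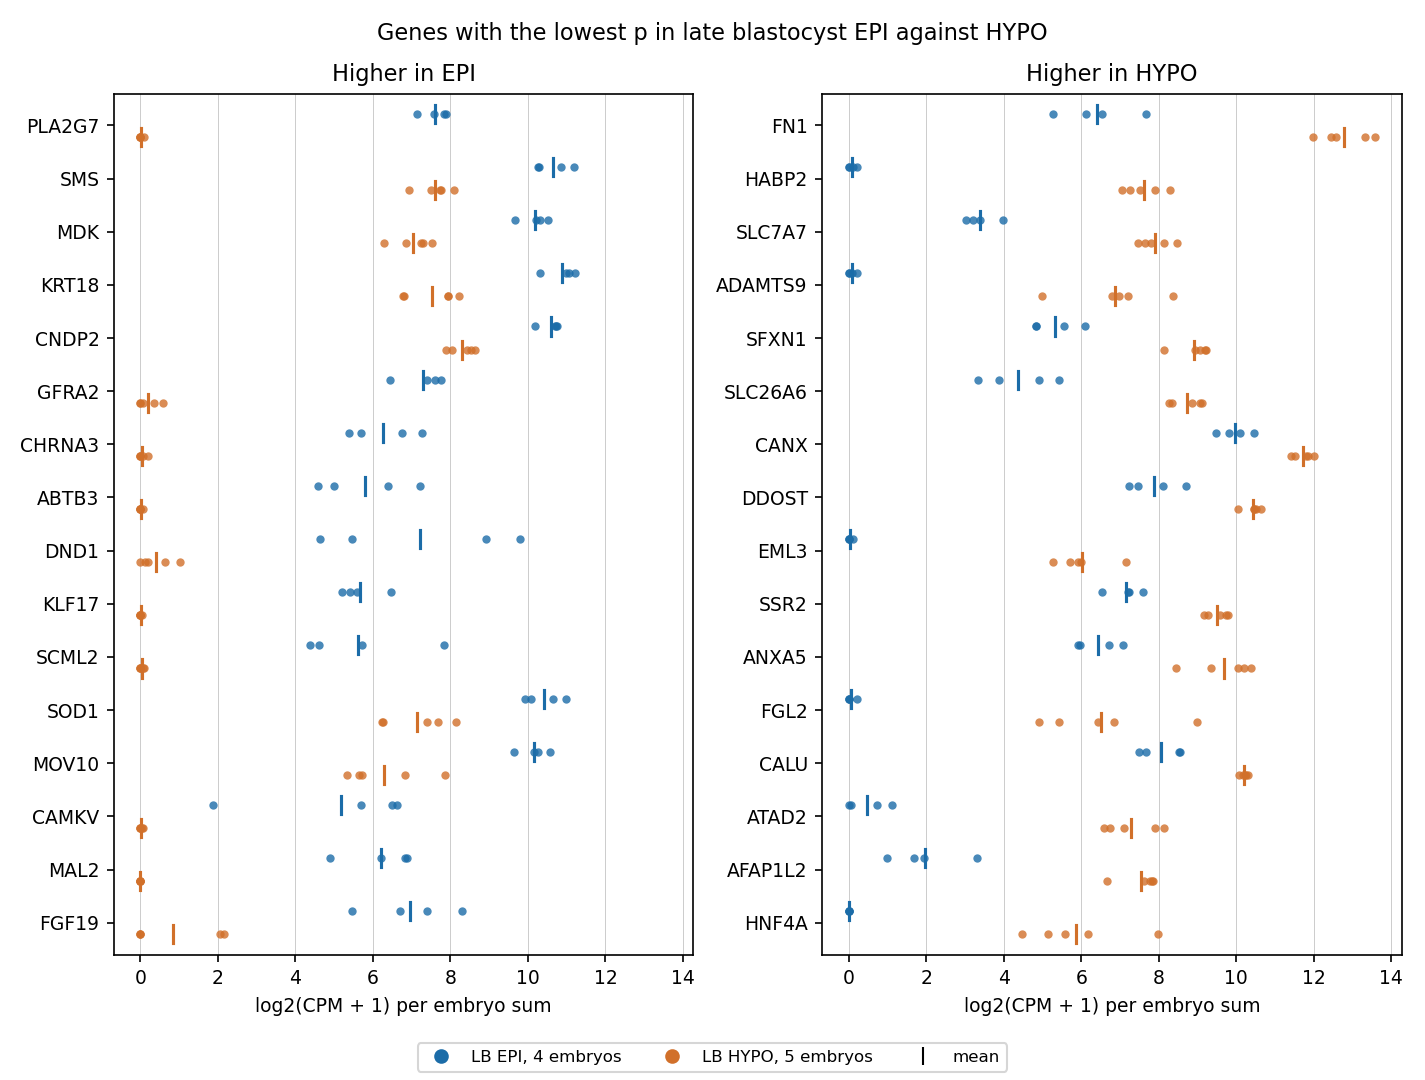
Points are log2(CPM + 1) of the embryo sums (x axis) for the marker genes and the named genes of lowest p in each direction (y axis), with 4 EPI embryos in blue, 5 HYPO embryos in orange and bars at the means. The genes of lowest p were picked among those without overlap, so their separation here was fixed by that choice. The markers do not overlap either. They were named apart from that rule but with earlier results of these data known, so their separation is no independent support. Genes such as PLA2G7, KLF17 and HNF4A sit at or near 0 in 1 lineage in all its embryos.

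Among the other EPI-higher genes of lowest p, PLA2G7, which hydrolyses platelet-activating factor and oxidised phospholipids, stood at 236, 226, 139.7 and 189.9 CPM in EPI. HYPO had 2 counts of PLA2G7 in all, both in AO, against 9998 in EPI (edgeR adjusted p = 0.000196), and 20 of 25 EPI cells passed a TPM of 1. Abundant genes also differed. SMS, spermine synthase, stood at 1216, 2331, 1866 and 1245 CPM in EPI and at 211, 181, 215, 273 and 121 CPM in HYPO (log2 fold change 3.06 ± 0.31, edgeR adjusted p = 0.000512). MDK, the heparin-binding growth factor midkine, stood at 811, 1458, 1184 and 1264 CPM in EPI and at 114, 155, 151, 182 and 77.3 CPM in HYPO (3.12 ± 0.32, edgeR adjusted p = 0.000524). Both were over a TPM of 1 in at least 35 of 36 HYPO cells and in all EPI cells. The antioxidant enzyme SOD1 (3.14 ± 0.43), the RNA helicase MOV10, which restrains retrotransposons (3.59 ± 0.52), and the dipeptidase CNDP2 (2.29 ± 0.25) were higher in EPI as well, with edgeR adjusted p-values of 0.00269, 0.00351 and 0.00078. SOD1 (0.0588) and CNDP2 (0.0567) did not pass with the replicate block.

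A further set was detected almost only in EPI. GFRA2, a receptor subunit for the neurotrophic factor neurturin, stood at 86.4, 216, 168 and 195 CPM in EPI and at 0 to 0.505 CPM in HYPO, in 25 of 25 EPI cells and 1 of 36 HYPO cells over a TPM of 1 (log2 fold change 9.62 ± 1.10, edgeR adjusted p = 0.00103). CHRNA3, a nicotinic acetylcholine receptor subunit, had 4920 counts in EPI and 5 in HYPO (edgeR adjusted p = 0.00181). SCML2, a Polycomb-related protein of the germline, had 5380 and 3 (0.00269), and ABTB3 had 3074 and 1 (0.0024). CAMKV had 3831 and 2 counts (edgeR adjusted p = 0.00409), with EPI AN at 2.67 CPM against 50.8 to 96.9 CPM in the other EPI sums. None of these 5 passed with the replicate block, GFRA2 having an adjusted p of 0.0539 and the others 0.111 to 0.223.

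Of 31 listed epiblast factors 17 were tested, and 3 were higher in EPI, against 0.897% of all genes, and none higher in HYPO, with a median log2 fold change of 3.57 against 0.14 over all genes with a count. POU5F1, SOX2 and NANOG were not analysed here. KLF17, a Krüppel-like factor of naive pluripotency, stood at 41.7, 88.1, 47.5 and 35.6 CPM in EPI with 1 HYPO count (edgeR adjusted p = 0.00269). Every EPI embryo was above the highest HYPO value, which was a condition for KLF17 to be among the named genes of lowest p. TFAP2C, a factor shared by trophectoderm and naive epiblast, stood at 777, 218, 453 and 340.0 CPM in EPI and at 96.1, 17.5, 4.55, 28.6 and 3.88 CPM in HYPO (log2 fold change 3.90 ± 0.86, edgeR adjusted p = 0.0359). The deubiquitinase USP44 stood at 289.6, 76.2, 265 and 178 CPM in EPI and at 9.57 CPM in HYPO AO, with the other HYPO sums at or under 0.334 (6.55 ± 1.51, 0.0435). TFAP2C and USP44 each lost the call in 7 of the 9 fits that left out 1 sum. KLF17 (adjusted p = 0.221), TFAP2C (0.0793) and USP44 (0.29) did not pass with the replicate block.

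Of 20 germline-associated genes with a count, 17 lay above 0, against 53.4% of all genes with a count, and their median log2 fold change was 2.98, or 4.53 with the replicate block. Of the 22 tested 2 were higher in EPI, against 0.897% of all genes. These were DND1 and RNF17, a Tudor-domain protein of the germline, which stood at 95.3, 40.7, 19.8 and 80.5 CPM in EPI and at 1.63 CPM in HYPO AO (7.18 ± 1.65, edgeR adjusted p = 0.0426). In the other HYPO sums RNF17 was at or under 0.0417 CPM, and the call was lost in 8 of the 9 leave-outs and with the replicate block (adjusted p = 0.528). Of 27 genes of DNA methylation and chromatin, 3 were higher in EPI, against 0.897% of all genes, and none higher in HYPO, with a median of 1.42. HELLS, a helicase needed for DNA methylation of repeats, stood at 2717, 1705, 1993 and 2671 CPM in EPI and at 13.3, 104, 26.2, 266 and 105 CPM in HYPO (4.46 ± 0.69, edgeR adjusted p = 0.00567). The de novo methyltransferase DNMT3B stood at 1727, 485, 843 and 2259 CPM in EPI and at 56.2, 155, 156, 58.1 and 271 CPM in HYPO (3.25 ± 0.55, 0.00895). For both, no HYPO sum reached the lowest EPI sum. The maintenance methyltransferase DNMT1 stood at 276 to 402 CPM in EPI and 224 to 424 CPM in HYPO (0.15 ± 0.32, edgeR adjusted p = 0.911). The deacetylase HDAC2 was higher in EPI (1.26 ± 0.27, edgeR adjusted p = 0.032), but HYPO AP at 1291 CPM overlapped with EPI AN at 1194 CPM and 7 of the 9 leave-outs lost the call. None of the 3 passed with the replicate block, at adjusted p-values of 0.0539 for HELLS, 0.0588 for DNMT3B and 0.228 for HDAC2.

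HYPO-higher genes of lowest p were led, after FN1, by HABP2, a secreted serine protease that binds hyaluronan. It had 4 counts in EPI and stood at 311, 181, 153, 133 and 239.9 CPM in HYPO (log2 fold change -11.33 ± 1.02, edgeR adjusted p = 0.000196), over a TPM of 1 in 32 of 36 HYPO cells and 1 of 25 EPI cells. ADAMTS9, a secreted metalloprotease, had 3 counts in EPI and 6036 in HYPO (edgeR adjusted p = 0.00115). FGL2, a secreted fibrinogen-like protein, had 2 and 4648 (0.00282), and EML3, a microtubule-binding protein, had 1 and 2966 (0.00269). ATAD2, a chromatin ATPase, stood at 0 to 1.18 CPM in EPI and at 94.9 to 279 CPM in HYPO (-8.38 ± 1.17, 0.00282). AFAP1L2, an actin-associated adaptor, stood at 0.97 to 8.9 CPM in EPI and at 100.7 to 230.2 CPM in HYPO (-5.69 ± 0.79, 0.00282). HABP2 passed with the replicate block, and the other 5 had adjusted p-values of 0.0539 (ATAD2) to 0.13 (EML3).

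Transporters were among them. SLC7A7, the light chain of a cationic amino acid exchanger, stood at 8.25, 14.7, 9.51 and 7.1 CPM in EPI and at 279.6, 199, 176, 221 and 353 CPM in HYPO (-4.63 ± 0.53, edgeR adjusted p = 0.00103). SFXN1, a mitochondrial serine carrier, stood at 67.4, 45.7, 27.2 and 27.3 CPM in EPI and at 279.6, 535, 593, 579 and 485 CPM in HYPO (-3.56 ± 0.44, 0.00174). The anion exchanger SLC26A6 lay between 9 and 41.8 CPM in EPI and between 305 and 553 CPM in HYPO (-4.22 ± 0.54, 0.00238). None of these overlapped between lineages, which was a condition for naming them. The phospholipid-binding annexin ANXA5 stood at 59.2 to 133 CPM in EPI and 349.6 to 1333 CPM in HYPO (-3.35 ± 0.45, edgeR adjusted p = 0.00269). SFXN1 passed with the replicate block, while SLC7A7 (0.0715), SLC26A6 (0.0534) and ANXA5 (0.0793) did not.

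Of 14 hypoblast and endoderm factors tested, HNF4A was the only one called, against 1.92% of all genes. The median log2 fold change was -1.66, or -0.73 with genes lacking a count in 1 lineage set at their bound, and with the replicate block it was -0.06, near 0. GATA4 had no EPI count and stood at 8.18, 17.4, 7.15, 15.4 and 9.7 CPM in HYPO, with an edgeR adjusted p of 0.0552. GATA6 stood at 0, 3.38, 5.23 and 2.3 CPM in EPI and at 0, 53.7, 162, 25.5 and 199 CPM in HYPO (-4.99 ± 1.65, edgeR adjusted p = 0.171), and HYPO AL, which had none, was a single cell. SOX17 was not analysed here.

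Basement membrane genes showed a median log2 fold change of -3.93 over 17 tested genes, 12 of the 16 with a count lay below 0, against 46.6% of all genes with a count, and 3 were higher in HYPO, against 1.03% of all genes, with none higher in EPI. Leave-outs gave 1 to 5 calls. Beside FN1 these were 2 laminin chains. LAMC1 stood at 0, 12.2, 30.3 and 17.3 CPM in EPI and at 509, 526, 592, 296 and 724 CPM in HYPO (-5.13 ± 1.0, edgeR adjusted p = 0.0193). LAMA1, on an entry added by the authors, had no EPI count and stood at 18.4, 34.7, 11.7, 16.5 and 24.4 CPM in HYPO, at least 431-fold higher over the groups (edgeR adjusted p = 0.026). LAMA1 passed a TPM of 1 in 31 of 36 HYPO cells and in 0 of 25 EPI cells. The third chain of that laminin, LAMB1, stood at 0, 154, 90.8 and 127 CPM in EPI and at 1018 to 2004 CPM in HYPO (-4.07 ± 1.06, edgeR adjusted p = 0.077). LAMC1 lost the call without EPI AQ (adjusted p = 0.056), and LAMA1 without EPI AP, EPI AQ, HYPO AM or HYPO AO, at adjusted p-values of 0.0548 to 0.0818. Of the 3, FN1 alone passed with the replicate block, LAMC1 having an adjusted p of 0.173 and LAMA1 0.667.

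Of 24 adhesion and junction genes tested, MAL2 was higher in EPI and OCLN and ITGB1 higher in HYPO, 3 genes against 1.92% of all genes, with a median of -0.66, or -1.0 with the replicate block. Occludin of tight junctions, OCLN, stood at 0.243, 16.1, 96.3 and 20.8 CPM in EPI and within a narrow 1182 to 1543 CPM in HYPO (-5.32 ± 1.02, edgeR adjusted p = 0.0175), and passed a TPM of 1 in 36 of 36 HYPO cells and 6 of 25 EPI cells. The integrin subunit ITGB1, a fibronectin and laminin receptor chain, stood at 430.1, 843, 925 and 991 CPM in EPI and at 1405, 1986, 2821, 1755 and 2573 CPM in HYPO (-1.40 ± 0.29, 0.026). OCLN lost the call without EPI AQ (adjusted p = 0.0574). ITGB1 did so in 5 of the 9 leave-outs (adjusted p 0.0545 to 0.0679). With the replicate block none of the 3 passed, OCLN having an adjusted p of 0.0948 and ITGB1 0.0982.

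**Figure D3:**
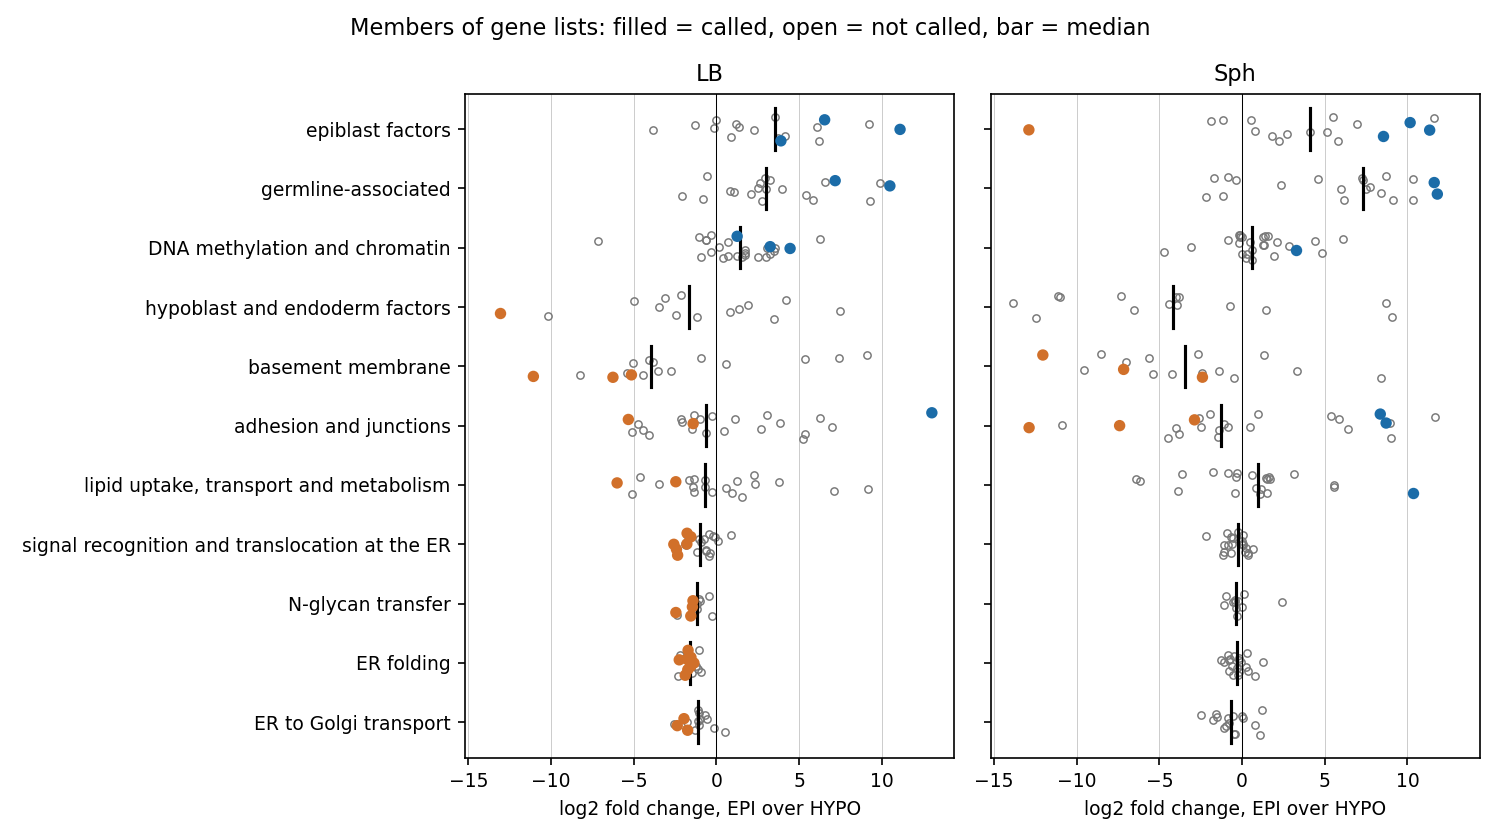
Each point is the log2 fold change of EPI over HYPO (x axis) of a list member with a count, in late blastocysts (left panel) and spherical embryos (right panel). Filled points are genes called higher in EPI (blue) or HYPO (orange), open points are not called, and black bars are medians, which in late blastocysts run from 3.57 for epiblast factors to -3.93 for basement membrane.

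Genes of protein entry and folding in the endoplasmic reticulum (ER) made up a share of the HYPO-higher genes. Their 4 lists were put together by function after the values were seen, and no test was made of them. Of 69 genes tested, 66 lay below 0 on the log2 scale, against 46.6% of all genes with a count, and 32 did not overlap between lineages, against 8.58% of all genes. In all, 23 or 33.3% were higher in HYPO, against 1.03% of all genes, and none higher in EPI. These genes had high counts, and such genes passed more often. Among 2302 genes with a mean log2(CPM + 1) of at least 6, 113 or 4.91% were higher in HYPO, against 23 of the 57 ER genes at that level, or 40.4%. Their differences were moderate, with log2 fold changes of the 23 between -2.57 and -1.36 and edgeR adjusted p-values of 0.00246 to 0.0403. The median over the 69 was -1.41, and lay between -1.29 and -1.59 under other scalings, DESeq2, the XIST term and the replicate block, although the block left 3 calls, SEC61A1, CANX and DDOST. Leave-outs left 14 to 22.

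By role, 6 of 22 genes of signal recognition and translocation, 4 of 11 of N-glycan transfer, 10 of 20 of folding and 3 of 16 of ER to Golgi transport were higher in HYPO. SEC61A1, the pore of the translocon, stood at 105, 396, 174 and 108 CPM in EPI and at 994, 1239, 892, 1578 and 1113 CPM in HYPO (-2.57 ± 0.42, edgeR adjusted p = 0.00737). SSR2 of the same complex stood at 91.7, 149.5, 191 and 147 CPM in EPI and at 576, 874, 759, 845 and 616 CPM in HYPO (-2.34 ± 0.32, 0.00269). DDOST, a subunit of the enzyme that transfers N-glycans, stood at 149, 413, 275 and 176 CPM in EPI and at 1598, 1406, 1050, 1391 and 1463 CPM in HYPO (-2.45 ± 0.33, 0.00269). In each of these 3 genes the lowest HYPO sum was more than 2 times the highest EPI sum. CANX, the lectin chaperone calnexin, stood at 715, 1398, 1095 and 894 CPM in EPI and at 2710, 2919, 3706, 3544 and 4096 CPM in HYPO (-1.73 ± 0.23, edgeR adjusted p = 0.00246). Its soluble relative CALR (-1.57 ± 0.24, 0.00597) and the disulfide isomerases PDIA4 (-1.77 ± 0.25, 0.00327) and PDIA3 (-1.66 ± 0.27, 0.00695) were also higher in HYPO. The cargo receptor LMAN1 (-1.74 ± 0.34, edgeR adjusted p = 0.0193) and the retrieval receptor KDELR1 (-2.36 ± 0.47, 0.0207) were higher at the step to the Golgi. HSPA5, the abundant chaperone BiP, stood at 3445 to 10316 CPM in EPI and 7440 to 20310 CPM in HYPO, overlapped and was not called (-1.05 ± 0.36, edgeR adjusted p = 0.195).

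Liver-type secreted proteins were not called in either direction in late blastocysts, with 21 tested and a median of -2.22, or -1.42 with genes lacking a count in 1 lineage at their bound and -1.31 with the replicate block. APOA2, an apolipoprotein, stood at 186 to 732 CPM in the 5 HYPO sums and at 0, 64.8, 1.41 and 0.1 CPM in EPI (-4.96 ± 1.58, edgeR adjusted p = 0.162), so that EPI AO stood apart from the other EPI sums. APOC3 showed the same high value in EPI AO, at 64.3 CPM against at most 0.2 CPM in the others (-4.89 ± 1.80, 0.216). Of 22 genes of lipid handling 2 were higher in HYPO, against 1.03% of all genes. ACSL1, which activates long-chain fatty acids, stood at 48.1 to 86.7 CPM in EPI and 167 to 597 CPM in HYPO (-2.45 ± 0.44, edgeR adjusted p = 0.0123). MTTP, which loads lipid onto apolipoprotein B, stood at 0, 9.88, 5.46 and 0.05 CPM in EPI and at 323, 309, 128, 296 and 194 CPM in HYPO (-6.00 ± 1.3, 0.036), and lost the call in 6 of the 9 leave-outs. With the replicate block neither ACSL1 (adjusted p = 0.305) nor MTTP (0.112) passed. Of 23 genes of glucose and glycogen metabolism none was called, and their median was 0.08, or 0.23 with the replicate block.

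In the signalling lists, 2 of 21 FGF and MAPK genes, 1 of 31 of NODAL, TGF-beta and BMP signalling and 1 of 37 of WNT signalling were called, 9.52%, 3.23% and 2.7% against 1.92% of all genes. No call of these lists passed with the replicate block. Of FGF and MAPK genes those called were higher in EPI, the ligand FGF19 and ETV1, an ETS factor that FGF signals induce. ETV1 stood at 109, 199, 219 and 290.4 CPM in EPI and at 0, 0.667, 0, 4.04 and 0 CPM in HYPO (7.54 ± 1.31, edgeR adjusted p = 0.0105). The ligand FGF4 had 734 counts in EPI and none in HYPO (edgeR adjusted p = 0.0976). The list's median of 0.14 turned to -0.41 with the replicate block and -0.48 with the XIST term. NODAL itself was the gene called in its list, on an entry the authors added. It stood at 27.2, 18.3, 13.8 and 15 CPM in EPI with no count in HYPO, at least 325-fold higher over the groups (edgeR adjusted p = 0.0421), but each of the 9 leave-outs raised the adjusted p to 0.0525 to 0.1098 and the replicate block to 0.775. GDF3, a related ligand, stood at 74.3 to 117 CPM in EPI and 0 to 5.72 CPM in HYPO (6.21 ± 1.49, edgeR adjusted p = 0.0545), and the receptor TGFBR1 at 103 to 493 and 15.5 to 96.1 CPM (2.49 ± 0.61, 0.0559). Among WNT genes the receptor FZD4 was higher in HYPO, at 10.6 to 22.8 CPM in EPI and 74.8 to 236 CPM in HYPO (-3.20 ± 0.62, edgeR adjusted p = 0.0195), with an adjusted p of 0.446 under the replicate block. The WNT median was 1.30, or 0.61 with the block, and leave-outs gave 0 to 2 calls.

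Markers of trophectoderm, which immunosurgery was meant to remove, were examined as the other cell type the samples could hold. The summed level of 12 such genes was 2909 to 4806 CPM in EPI and 1536 to 3271 CPM in HYPO. Of the 12, 1 gene, KRT18, was higher in EPI, against 0.897% of all genes, and none was called higher in HYPO. The list as a whole went the other way, with 10 of the 12 below 0, against 46.6% of all genes with a count, and a median log2 fold change of -2.08. KRT18, a keratin of simple epithelia, stood at 2369, 1274, 2014 and 2144 CPM in EPI and at 109.9, 299, 244, 245 and 109 CPM in HYPO (3.27 ± 0.35, edgeR adjusted p = 0.00078), while its partner KRT8 stood at 1487 to 2668 and 1157 to 2270 CPM (0.09 ± 0.24, 0.956). Keratins have many processed copies, so their counts are uncertain. Without the keratins, the other 10 genes summed to 110 to 149 CPM in EPI and 269 to 773 CPM in HYPO. ELF5 had no count in EPI, GATA3 had 10 counts in EPI and 172 in HYPO, and GATA2 had 45 and 137. The part of trophectoderm cells in the KRT18 difference was not tested. Immediate early and stress genes summed to 8273 to 25267 CPM in EPI and 17358 to 31729 CPM in HYPO, and none of 8 was called. Of 2 gastrulation markers tested neither was called, and they summed to 0.731 to 3.15 CPM in EPI and 0 in HYPO.

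In spherical embryos, edgeR gave 83 genes higher in EPI (0.564%) and 84 higher in HYPO (0.571%). Of the 132 genes higher in LB EPI, 124 or 93.9% were higher in Sph EPI, against 65.5% of all genes with a count, and 28 or 21.2% passed there in the same direction. Of the 151 genes higher in LB HYPO, 132 or 87.4% were higher in Sph HYPO, against 34.5% of all genes, and 26 or 17.2% passed. No gene of either set passed in the opposite direction. Sph HYPO rested on 12 cells in 3 sums, so a gene that missed the threshold there was not shown to be equal.

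**Figure D4:**
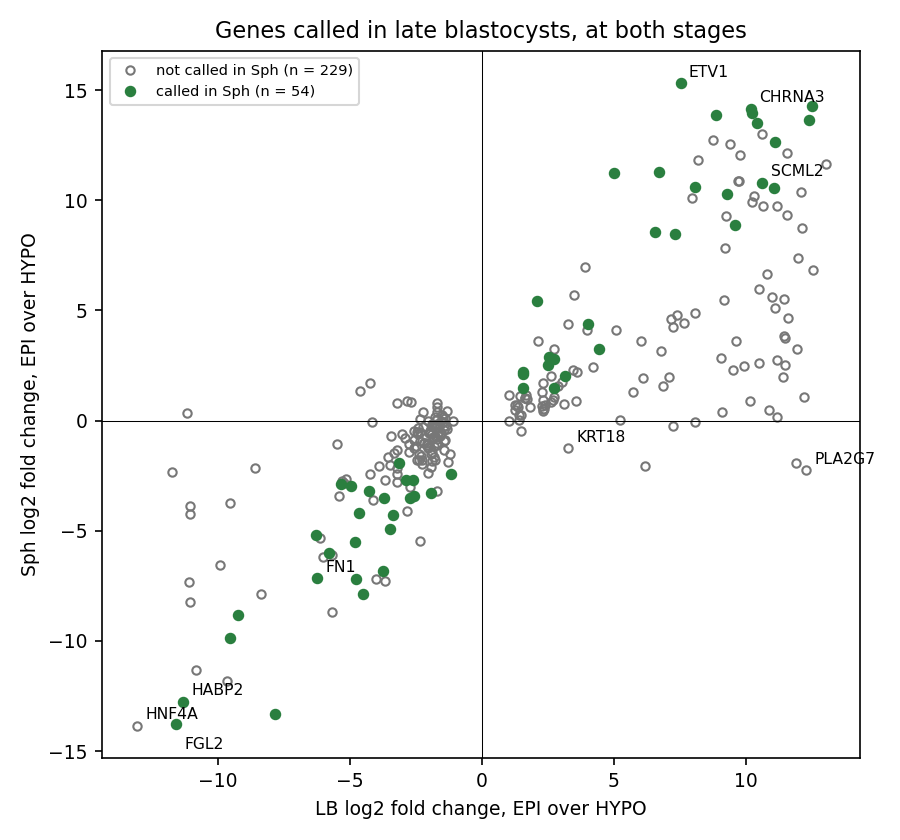
Each of the 283 genes called in late blastocysts is plotted by its log2 fold change of EPI over HYPO in late blastocysts (x axis) and in spherical embryos (y axis). The 54 genes also called in spherical embryos (green) lie in the same direction at both stages, and genes with few or no counts in 1 lineage are at fitted values that are not bounds.

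FN1 stood at 73.3, 85, 74 and 56.5 CPM in Sph EPI of embryos C, D, E and F and at 14622, 11453 and 4887 CPM in Sph HYPO of C, E and F (-7.16 ± 0.38, edgeR adjusted p = 1.1e-05). HABP2 had 2 counts in Sph EPI and 4234 in Sph HYPO (edgeR adjusted p = 0.00192), and FGL2 had 2 and 10266 (0.000203). OCLN (-2.87 ± 0.59, 0.0471), SLC7A7 (-4.17 ± 0.71, 0.0187) and ANXA5 (-4.26 ± 0.61, 0.00859) were higher in Sph HYPO by edgeR adjusted p. On the EPI side, ETV1 stood at 262, 314, 240 and 221 CPM in Sph EPI with no count in Sph HYPO (edgeR adjusted p = 0.000639). CHRNA3 had 13575 counts and none (0.00594), SCML2 30033 and 3 (0.00213), and FGF19 14382 and 1 (0.00688). USP44 (8.55 ± 1.08, 0.00426), HELLS (3.26 ± 0.61, 0.03) and SOD1 (2.04 ± 0.36, 0.0232) were also higher in Sph EPI. HNF4A had no count in Sph EPI and stood at 185, 0 and 94.1 CPM in Sph HYPO, which missed the threshold (edgeR adjusted p = 0.0743). MAL2 was counted in each Sph EPI sum and in no Sph HYPO sum (0.103), and NODAL was present in both lineages, at 24.7 to 46.9 and 0 to 60 CPM (0.48 ± 1.49, 0.948). KLF17 had 37 counts in Sph EPI and none in Sph HYPO, so it was low in both lineages at the later stage.

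The ER genes were not called at the later stage. None of the 69 passed in spherical embryos, and their median log2 fold change was -0.41, with the median over all genes with a count at 0.70. The 23 genes higher in LB HYPO had Sph log2 fold changes of -1.50 to 0.38. SSR2, for instance, stood at 633, 446, 476 and 504.95 CPM in Sph EPI and at 413, 506.3 and 551 CPM in Sph HYPO (0.07 ± 0.30, edgeR adjusted p = 0.982). The difference between the stages was itself tested and was not called for any of the 69, with a lowest adjusted p of 0.0543, that of SSR2.

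Of 21 liver-type genes tested, none of them called in late blastocysts, 4 were higher in Sph HYPO, against 0.571% of all genes. APOA2 had 1 count in Sph EPI and 28367 in Sph HYPO (edgeR adjusted p = 1.1e-05) and APOC3 had 4 and 3866 (0.00138). APOE (-2.87 ± 0.48, 0.0177) and APOM (-10.36 ± 1.59, 0.0122) were the others. The test of the stage difference did not pass for APOA2 (edgeR adjusted p = 0.055).

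Over all genes, 6 or 0.0408% had an EPI against HYPO difference that itself differed between the stages. Of the named late blastocyst genes these were PLA2G7 and KRT18. PLA2G7 stood at 71.3, 11.1, 0 and 69 CPM in Sph EPI and at 167, 120 and 247 CPM in Sph HYPO, so the later HYPO sums were above all later EPI sums (stage difference, edgeR adjusted p = 0.0127). KRT18 stood at 1639, 1668, 242 and 2395 CPM in Sph EPI and at 1872, 1568 and 7219 CPM in Sph HYPO, with the groups overlapping (0.0371). The unnamed entry ENSSSCG00000016548 was higher in LB HYPO, at 10.01 to 61.4 CPM in EPI and 731 to 1739 CPM in HYPO (-5.50 ± 0.63, edgeR adjusted p = 0.00103), while at the later stage EPI stood at 375 to 1039 CPM and HYPO at 1000 to 2110 CPM (stage difference, 0.0422). CLU, DMXL1 and SLC44A4 were not called in late blastocysts and higher in Sph HYPO, with stage differences at adjusted p-values of 0.0176, 0.0371 and 0.0371. The 6 calls were fragile. Without Sph EPI C or Sph EPI D none passed, PLA2G7 then having adjusted p-values of 0.053 and 0.0635, and without Sph HYPO F, the largest of the 3 HYPO sums, 165 genes passed.

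**Figure D5:**
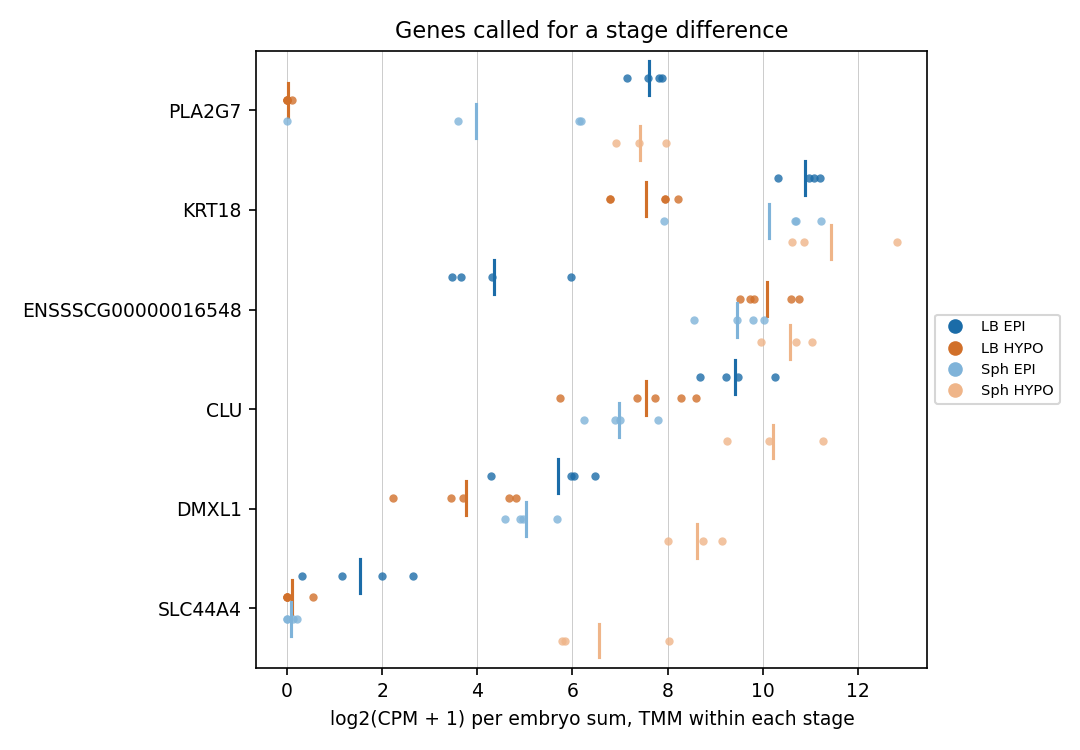
Points are log2(CPM + 1) of embryo sums (x axis) for the 6 genes whose EPI against HYPO difference itself differed between stages (y axis), with bars at group means and TMM scaling made within each stage. PLA2G7 is near 0 in the 5 LB HYPO sums and between 120 and 247 CPM in the 3 Sph HYPO sums.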

How the data were processed

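Per the labels and the methods, the authors made Smart-seq2 libraries of single cells, pooled them, trimmed reads and aligned them with HISAT2 2.1.0 to Sscrofa10.2. Unique reads per gene were counted with HTSeq on Ensembl genes plus 16 entries the authors added, without unique molecular identifiers. Library pools are inferred here from the SLX number in each sample title, which takes 8 values. The authors' methods do not state that number of pools. The authors kept cells by read number and mitochondrial share. The authors deposited raw counts and TPM, values per transcript length scaled to the same total in each cell. LB lineage labels are taken to rest on clustering of the same cells, so LB p-values are no independent test. Here counts were summed per embryo and lineage (1678233 to 29496266 per late blastocyst sum), and 14721 of 22840 entries with a TPM over 1 in at least 3 of 220 cells were tested with edgeR 4.0.16 (R 4.3.3): TMM scaling, quasi-likelihood fit, Benjamini-Hochberg adjustment, threshold 0.05, called genes being those under it. SE is the log2 fold change over the square root of F. LB and Sph sums were each fitted alone, and the stage difference in 1 joint fit. Symbols were matched for 11443 entries, and 10 symbols fell on 2 entries, of which the one with more counts kept the symbol. Named genes were the proposed markers, called list members and the 15 of lowest p per direction. The latter had to carry a symbol and show no overlap between EPI and HYPO sums. Genes and lists were chosen with earlier results of these data known, and the ER, redox and transporter lists after these values were seen. Fold bounds use a floor of 3 counts over a group. All intervals and floors cover counting error only, and embryos are the replicates: labels do not say how many sows they came from. EPI and HYPO sums of AN, AO and AP come from the same embryo and so are paired by source, and residual correlations of the pairs over 9874 genes were 0.0186, 0.086 and -0.00335. Alternatives were other scalings, DESeq2 1.42.0, limma 3.58.1 on mean log2(TPM + 1), filters, sums of at least 2 cells, pools, the block, an XIST term and leave-outs. Scripts were tested on simulated late blastocyst sums with 200 genes changed. At a 4-fold change 3 genes (1.5%) were recovered, with 3 false calls. At a 16-fold change 100 (50%) were recovered, with 10 false calls. A gene that was not called was therefore not shown to be equal. In both simulated runs false calls made up a larger share of the calls than the threshold of 0.05. The share of false calls among the late blastocyst genes may likewise exceed it. Sequences were not used here, and 1 gene that met the naming rule is not reported here.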

Additional observations from a re-analysis of the deposited data

Results flagged for a closer look

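Within groups of 4 or 5 embryos, 12 of 94 groups of named genes held 1 sum far from the others by Dixon's criterion. Chance gives this in about 1 of 20 groups of continuous values. That rate does not apply to 5 of the 12, PLA2G7, KLF17, ABTB3, EML3 and FGL2. In these every other sum was at 0 and 1 or 2 counts sufficed. For CHRNA3, RNF17 and USP44 the HYPO sums of AL, AN and AP were tied at 0, so the rate does not hold there either. Values are log2(CPM + 1). In HYPO AO the flagged genes were PLA2G7 at 0.108, CHRNA3 at 0.209, KLF17 at 0.055, RNF17 at 1.4 and USP44 at 3.4. All of them were EPI-higher genes, as was ABTB3 at 0.059, flagged in HYPO AM. HYPO AO and AM hold the most cells of the HYPO sums, 16 and 14. In EPI AO, the HYPO-higher genes EML3 at 0.114 and FGL2 at 0.22 stood above the other EPI sums, which had no count. The remaining sums were CNDP2 in EPI AP at 10.19 and SFXN1 and AFAP1L2 in HYPO AL, a single cell, at 8.13 and 6.67, all below the rest of their groups, and HDAC2 in HYPO AP at 10.34, above it.

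The EPI against HYPO difference of PLA2G7 differed between late blastocysts and spherical embryos with an edgeR adjusted p of 0.0127, and that of KRT18 with 0.0371. PLA2G7 passed in 23 of 25 alternatives and KRT18 in 16 of 25.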

How the results depend on the processing

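The late blastocyst count of 283 became 1373 with DESeq2, 696 with limma on mean log2(TPM + 1), 113 and 64 in the first and last 4 pools, and 138 to 294 when 1 sum was left out, with EPI AP, EPI AQ and HYPO AM (146, 138 and 163) moving it most. With the replicate block it was 20, a fit in which embryos with 1 lineage add nothing. The spherical embryo count of 167 became 1447 with DESeq2, 367 with limma, 82 with the replicate block and 78 to 583 over leave-outs (108, 78 and 109 without EPI C, E and F, 583 without HYPO F). The stage difference count of 6 became 13 without TMM, 15 with RLE size factors, 540 with DESeq2, 10 without a filter, 171 with limma, 13 with the replicate block, 3 in sums of at least 2 cells, and 0 to 165 over leave-outs. Of 987 values of 47 named genes under 21 alternatives, 821 kept the direction and the call. A further 166 kept the direction and lost the call, and 0 reversed. The 47 genes were named as called on these cells, which the alternatives reuse, so their direction is no independent support. Of the named genes 11 passed with the block, and 36 did not, at adjusted p-values of 0.0534 to 0.775, and 35 passed in all 9 leave-outs. RLE size factors gave 313 late blastocyst genes, no TMM 319 and the XIST term, chosen after seeing the data, 342. Over all genes with a count the median log2 difference, 0.14, was 0.27 without TMM, 0.24 with the XIST term and 0.09 with the block. Only 1 of 16 Y-linked symbols matched an entry, so the planned term for sex from those genes was not run. Single cells in a sum (HYPO AL) and few Sph HYPO cells limit the depth of both comparisons.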

Other observations

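Solute carriers were examined as a family after the values were seen. Of 219 tested, 12 were higher in HYPO and 1 in EPI, together 5.94% against 1.92% of all genes, with a median log2 fold change of -0.40. With the replicate block the median was near 0 and 2 genes passed, SLC10A4 and SLC3A1, and leave-outs gave 7 to 13 calls. Beside SLC7A7 and SLC26A6, the HYPO-higher ones included SLC3A2, the heavy chain that pairs with SLC7A7, at 240.2 to 456 CPM in EPI and 779 to 1519 CPM in HYPO (-1.68 ± 0.28, edgeR adjusted p = 0.00895), and SLC3A1, the heavy chain of a cystine transporter, at 4.85 to 99.6 and 228 to 913 CPM (-3.66 ± 0.73, 0.0225). SLC27A4, a fatty acid transport protein, stood at 0 to 25 CPM in EPI and 186 to 564 CPM in HYPO (-5.23 ± 1.11, 0.0288). The EPI-higher member was SLC10A4, a vesicular relative of bile acid carriers, at 125, 171, 228 and 512 CPM in EPI and at most 2 CPM in HYPO (8.89 ± 1.32, edgeR adjusted p = 0.00409), and it was also higher in Sph EPI (adjusted p = 0.0177).

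Of 16 redox enzymes, a list also drawn up after the values were seen, 3 were higher in each lineage, 37.5% against 1.92% of all genes, with a median of -0.02. None of the 6 passed with the replicate block, and leave-outs left 1 to 4. Beside SOD1, the peroxiredoxins PRDX2 (1.42 ± 0.28, edgeR adjusted p = 0.0216) and PRDX1 (1.27 ± 0.30, 0.048) were higher in EPI. Thioredoxin reductase TXNRD1 (-1.42 ± 0.29, edgeR adjusted p = 0.026), glyoxalase GLO1 (-1.85 ± 0.39, 0.0283) and glutathione synthetase GSS (-3.01 ± 0.66, 0.034) were higher in HYPO. Of these 6 genes, SOD1 passed in spherical embryos.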
